A study of Homo sapiens with 21 samples.

Results

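The genes described here encode 8 members of the S100 family, namely S100A4, S100A6, S100A8, S100A9, S100A10, S100A11, S100A12 and S100A13. They were chosen by symbol, as 8 of the 20423 genes in a table of normalized RNA-sequencing counts, and are followed over all of its 19 libraries. The libraries come from THP1 cells, a human line of monocytic acute myeloid leukemia. The shRNA arm held 2 libraries of an shRNA control (replicates 1 and 3) and 3 libraries each of shRNA1 and shRNA2 against IRF2BP2, a transcriptional cofactor, in the pLKO.1 vector. The knockout arm held 2 libraries of a KO control and 2 libraries each of clone 1 and clone 2 of an ATF7 KO and of a JDP2 KO, made with Lenti-CRISPRv2 constructs and isolated by limited dilution. Both ATF7 and JDP2 belong to the bZIP family of DNA-binding proteins, whose members work as dimers. There was also 1 unmodified wild-type library. Each knockout thus rests on 2 clones, each grown from 1 cell, the labels do not say whether the KO control was cloned too, and no drug or stimulus is named for any group. The labels do not say that replicates were separate cultures, so a p-value here reflects variation between libraries that could be purely technical.

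S100 proteins are small calcium-binding proteins of the EF-hand type that change shape on binding calcium and then hold partner proteins. S100A8 and S100A9 form the heterodimer calprotectin, a major cytosolic protein of neutrophils and monocytes that withholds metal ions from microbes and, when released, can signal through TLR4 and the receptor AGER. S100A12, a related protein of granulocytes and monocytes, also binds AGER, whereas S100A4, S100A6, S100A10, S100A11 and S100A13 are expressed in many cell types and act on myosin, annexins and secretion inside the cell.

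All 8 genes lie on chromosome 1 between 151982915 and 153631360 (GRCh38, GENCODE), a span of 1.65 megabases with 63 protein-coding genes, of which 16 are named S100. S100A9 lies at chr1:153357854-153361027 on the plus strand. S100A12 (chr1:153373706-153375649) and S100A8 (chr1:153390032-153391188) follow it on the minus strand. S100A6 (chr1:153534599-153536244), S100A4 (chr1:153543613-153550136) and S100A13 (chr1:153618787-153631360) lie further along on the minus strand, and S100A10 (chr1:151982915-151994390) and S100A11 (chr1:152032506-152047907) lie before them, also on the minus strand. S100A13 shares exon bases with S100A1 on the other strand and with AL162258.1, up to 536 bases, S100A6 shares 23 with the antisense gene BX470102.1, and S100A11 has 2 named pseudogenes. How reads were assigned to strands is not given in the sources used here. The levels of S100A13, S100A6 and S100A11 are uncertain to the extent of those overlaps.

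The promoters of S100A8, S100A9 and S100A12 are shown because these genes had the largest increases in the IRF2BP2 knockdown. Each is the 250 bases before a transcript start in RefSeq (GRCh38.p14), written from 5′ to 3′ on the strand of the gene, with motif matches in capitals. For S100A8 the second of its 3 starts is shown. The windows are chr1:153357604-153357853 (plus strand) for S100A9, chr1:153391074-153391323 (minus strand) for S100A8 and chr1:153375622-153375871 (minus strand) for S100A12.
S100A9: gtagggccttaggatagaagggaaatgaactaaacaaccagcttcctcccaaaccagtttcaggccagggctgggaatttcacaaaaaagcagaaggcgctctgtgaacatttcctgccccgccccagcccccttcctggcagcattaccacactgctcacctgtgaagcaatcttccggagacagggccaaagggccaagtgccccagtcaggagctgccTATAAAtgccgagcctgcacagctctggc
S100A8: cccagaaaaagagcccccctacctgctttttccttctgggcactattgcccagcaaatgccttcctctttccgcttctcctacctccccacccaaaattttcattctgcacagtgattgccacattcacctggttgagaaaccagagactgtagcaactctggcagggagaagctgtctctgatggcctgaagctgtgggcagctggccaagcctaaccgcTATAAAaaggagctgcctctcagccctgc
S100A12: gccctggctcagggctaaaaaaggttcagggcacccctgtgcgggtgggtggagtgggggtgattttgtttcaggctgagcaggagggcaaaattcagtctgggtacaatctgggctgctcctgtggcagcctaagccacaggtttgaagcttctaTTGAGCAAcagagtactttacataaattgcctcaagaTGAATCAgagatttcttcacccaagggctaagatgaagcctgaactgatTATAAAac
The motifs were searched on both strands in the 250 bases before each of 12 starts of the 8 genes and of 35116 promoters in all. The AP-1 motif TGANTCA, the class of site bound by FOS, JUN and JDP2 dimers, was held by 6.57 percent of all promoters and by that of S100A12, as TGAATCA with its first base 57 bases before the start. The CRE motif TGACGTCA, the class of site bound by ATF proteins, was in 1.65 percent of all promoters, and the interferon regulatory factor motif (GAAA, any 2 bases, GAAA) in 3.02 percent, and neither was in any of the 12 windows. The C/EBP motif TTGCNNAA was in 9.05 percent of all promoters, with TTGAGCAA in S100A12 and TTGGGCAA in S100A11 read on the gene strand. The TATA motif TATAAA, added after the sequences were seen, was in 10.7 percent of all promoters and in 6 of the 12 windows. The windows of S100A8 starts 2 and 3 overlap and hold the same TATA match, and the window of S100A8 start 1 holds none. The first base of the motif lay 29 bases before the start of S100A9 and of S100A8 as shown, and 8 bases before that of S100A12. AP-1 and TATA matches are not overlapping in these windows, and no match says only that these letters are not in the window.

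Reads in genes numbered 28650241 to 60196382 per library, of which 0.0549 to 0.243 percent fell in the 8 genes. For 3 libraries over 20 percent of genes differed by more than 2-fold from their median over the 19 libraries: IRF2BP2 shRNA1 replicate 3 (48.5 percent), JDP2 KO clone 1 replicate 2 (38.2 percent) and IRF2BP2 shRNA2 replicate 3 (25.6 percent). The targeted IRF2BP2 message was 16973 and 18382 normalized counts in shRNA control, 9456 to 11109.7 with shRNA1, and 12587, 16649 and 25651 with shRNA2, so the library labelled IRF2BP2 shRNA2 replicate 3 lies above both controls, against its label. Each direction given for the knockdown includes that library. As a group, shRNA2 had no less IRF2BP2 message (18296 ± 6686, SD, n = 3) than shRNA control (17677 ± 997, SD, n = 2). Within shRNA2, replicate 1 lay below all 5 controls (14859 to 21364) and replicate 2 within their range. ATF7 message in ATF7 KO (363 to 645) and JDP2 message in JDP2 KO (3158 to 5693) overlapped the KO control libraries (299.9 and 537 for ATF7, 3438 and 5085 for JDP2), and an edit can end a protein while its message stays, so the message gives no check of those labels.

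In control THP1 cells the 8 genes spanned a wide range of levels. Per kilobase of exon, S100A11 (12686 ± 1461, SD, n = 5) and S100A6 (10436 ± 1171) had the highest normalized counts in the 5 control libraries (shRNA control, wild type and KO control). Next came S100A9 at 2128 ± 1799.6, S100A4 at 1309 ± 256 and S100A10 at 777 ± 157. S100A13 stood at 46.6 ± 12.8, S100A8 at 20.7 ± 12.5 and S100A12 at 2.87 ± 3.37. S100A9 ranged from 673 to 5134 per kilobase and so overlapped both S100A4 (1038 to 1612) and S100A10 (584 to 962), and S100A8 (1.98 to 34.6) overlapped S100A13 (33.3 to 63.4) and S100A12 (0 to 8.18). S100A11 (10348 to 14193) overlapped S100A6 (9295 to 11973). The partners in calprotectin were thus at unlike message levels in control cells, with S100A9 near the middle of the 8 genes and S100A8 near the bottom.

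**Figure D1:**
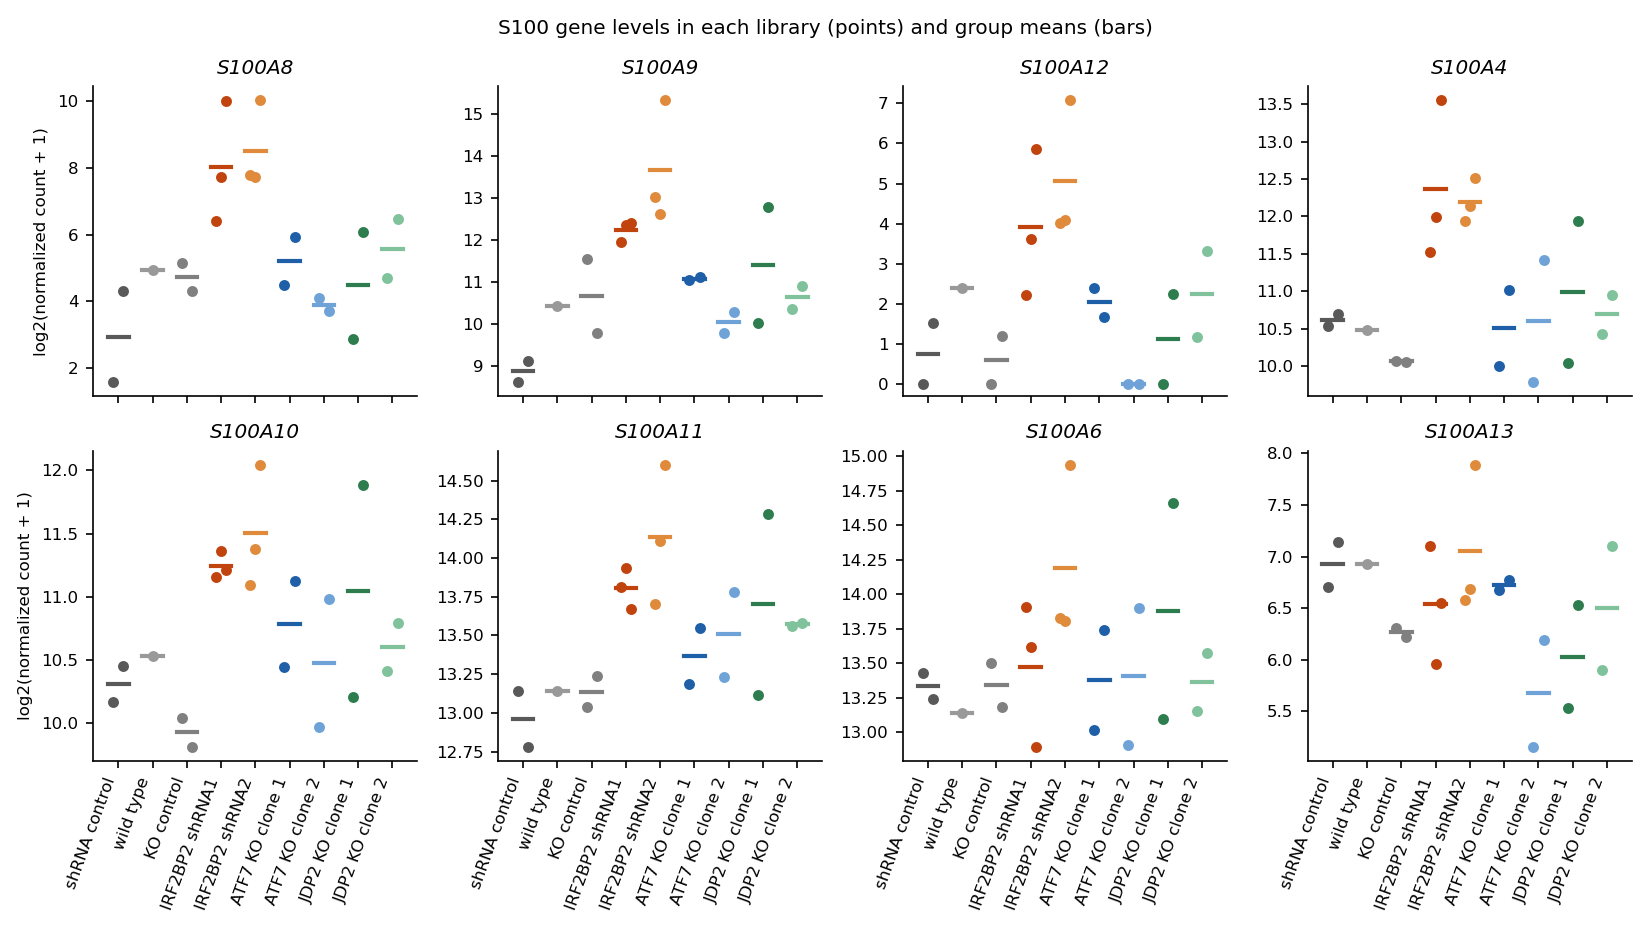
Level of each S100 gene in each of the 19 libraries as log2(normalized count + 1), with points for libraries and bars for group means; panels have their own vertical ranges, and KO stands for knockout. All 6 IRF2BP2 knockdown libraries lie above all 5 control libraries for S100A8, S100A9, S100A4, S100A10 and S100A11, and among the knockout libraries JDP2 KO clone 1 replicate 2 is high for S100A9, S100A10, S100A11 and S100A6.

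The knockdown was compared with shRNA control to see how these messages stand in libraries labelled as IRF2BP2 knockdown. In shRNA2 as a group, IRF2BP2 message was not lower. The title of the study sets IRF2BP2 against a heterodimer of ATF7 and JDP2. Of the 8 genes, 2 were called, S100A8 and S100A9, the subunits of calprotectin, and both rose (limma, two-sided, adjusted p under 0.05 over all genes tested). Among all 12738 genes tested 1.79 percent were called in either direction and 1.54 percent as higher. The median log2 change was 1.36 over the 8 genes and -0.03 over all genes tested. At an unadjusted p under 0.05 stood 6 of the 8 genes, all but S100A6 and S100A13, and 1781 of the 12738 genes tested. S100A12, which passed the filter on low counts only through the knockdown libraries, is included in these counts and in that median, so they support nothing on their own. In bulk RNA more cells of a kind and more RNA per cell cannot be told apart.

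S100A8 was near the detection limit in control cells. Its normalized count was 1.99 and 18.7 in shRNA control, 83.5, 211.01 and 1025 with IRF2BP2 shRNA1, and 219.9, 214 and 1052 with shRNA2. Every knockdown library was above both shRNA controls, and also above wild type (29.7) and the KO control (34.8 and 19.1). Replicate 3 of each hairpin, both among the 3 libraries far from the median, was about as high as the other and far above the remaining 4. The mean rose from 10.4 ± 11.8 (SD, n = 2) to 468 ± 445 (SD, n = 6), a log2 change of 5.34 ± 0.92 (SE; 95 percent interval 3.34 to 7.34; limma adjusted p = 0.0113) that was seen in 6 of 6 libraries. The control mean rests on 2 and 20 reads, so the size of this change is loosely set by counting alone.

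S100A9, which is far more abundant, stood at 388 and 553 in shRNA control, at 3926, 5169 and 5379.8 with IRF2BP2 shRNA1, and at 8237, 6264 and 40910.3 with shRNA2. The libraries of shRNA2 all lay above those of shRNA1, and replicate 3 of shRNA2 was 4.97 times as high as the next library of the whole series. The lowest knockdown library was above the highest of the 5 controls, KO control replicate 1 at 2962 (wild type 1363, KO control replicate 2 874). The mean rose from 470.5 ± 116 (SD, n = 2) to 11648 ± 14407 (SD, n = 6), a log2 change of 4.08 ± 0.69 (SE; interval 2.58 to 5.57; limma adjusted p = 0.0101), in 6 of 6 libraries. With each hairpin alone, a comparison added after the data were seen, the log2 change was 5.10 for S100A8 and 3.36 for S100A9 with shRNA1 (adjusted p = 0.0324 and 0.0272), and 5.58 and 4.79 with shRNA2 (adjusted p = 0.0204 and 0.00458).

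Both calls depended on single control libraries. Without shRNA control replicate 1, where S100A8 was lowest, neither passed the test (log2 change 3.98, adjusted p = 0.312 for S100A8, and 3.82, adjusted p = 0.225 for S100A9), where 0.0862 percent of all genes were called. Without shRNA control replicate 3, S100A9 did not pass (4.33, adjusted p = 0.0774) and S100A8 did (6.70, adjusted p = 0.0285), with 0.484 percent of all genes called. Limma without IRF2BP2 shRNA1 replicate 3 called 5 of the 8 genes (4.92 percent of all genes). It also called 5 without the 3 libraries far from the median (10.1 percent), where S100A8 changed by 4.47 and S100A9 by 3.62.

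Markers of cell types were read beside these results. Of 10 monocytic markers, which should mark this line, none was at 0 throughout the control libraries. CD14 (3.75 to 16.3), VCAN (0 to 19.1) and MPEG1 (0 to 3.95) were low in the 5 controls. MPEG1 was at 0 in wild type and in KO control replicate 1. Of 8 monocytic markers tested in the knockdown 1 rose, ITGAM (3.17 ± 0.46, SE, limma adjusted p = 0.00533), and the summed level of all 10 was 39011 to 165285 in the knockdown against 23248 to 30576 in shRNA control. The sums in the KO control (37423 and 45627) and wild type (92519) overlapped those of the knockdown. LYZ alone stood at 12310 and 19540 in shRNA control and at 18979 to 106648 in the knockdown. Of 6 neutrophil granule markers tested 1 rose, CAMP (4.09 ± 0.91, limma adjusted p = 0.0423), which encodes cathelicidin. The median log2 change of the 6 was -0.54. MMP8 of these, and CD14 of the monocytic markers, passed the filter on low counts only through the knockdown libraries. The granule markers ELANE (-1.83 ± 0.66, adjusted p = 0.224), PRTN3 (-2.38 ± 0.74, adjusted p = 0.155) and AZU1 (-1.82 ± 0.58, adjusted p = 0.158), named after their values were seen, had negative log2 changes that did not pass the limma test. Beside CAMP, the other granule markers tested had positive changes, MMP8 of 2.39 (limma adjusted p = 0.197) and MPO of 0.74 (limma adjusted p = 0.674). The sum of all 9 was 12044 to 91946 in the knockdown, below both shRNA control libraries (144095 and 194148) but overlapping the KO control (48758 and 69447). T and B lymphoid markers (sum 212 to 1605 in the knockdown, 662 to 825 in the controls, CD3D at 0 in all 5 controls), erythroid and megakaryocytic markers (164 to 267 and 138 to 338, PF4 at 0 in all 5 controls) and epithelial markers (29.1 to 123 and 45.6 to 169) were low, with 0 of 3, 0 of 2 and 0 of 2 tested genes called. Of 3 stromal markers tested FN1 rose (2.42 ± 0.55, adjusted p = 0.0449), with sums of 163 to 501 and 69.5 to 225. In the knockouts 0 markers of these lists were called. The part of these markers in the S100 levels was not tested.

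S100A12 was nearly silent outside the knockdown. Its normalized count was 0 and 1.87 in shRNA control, 3.67, 11.4 and 57.5 with IRF2BP2 shRNA1, and 15.2, 16.1 and 134 with shRNA2. Replicate 3 of each hairpin was again the highest, and the lowest knockdown library, at 4 reads, overlapped wild type (4.24, also 4 reads). The KO control stood at 0 and 1.32. Summed over libraries, 243 reads in the knockdown stood against 2 in shRNA control, a depth-adjusted ratio of 37.2 (exact 95 percent interval 10.2 to 309, counting error only), and against 8 in all 5 controls, a ratio of 24.5 (12.2 to 57.4). S100A12 passed the filter on low counts only through the knockdown libraries. It had a log2 change of 3.72 ± 1.11 (SE; interval 1.32 to 6.13; adjusted p = 0.136 by limma) and lay above the shRNA control mean in 6 of 6 libraries.

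The number of S100A9 reads per S100A8 read was compared next, since the proteins act as a heterodimer. It was 195 and 29.5 in shRNA control, 47.0, 24.5 and 5.25 with IRF2BP2 shRNA1, and 37.5, 29.3 and 38.9 with shRNA2. The first control value rests on 2 S100A8 reads and has an exact counting interval from 53.6 to 1616. In 3 of 6 knockdown libraries the ratio lay within the range of the 5 controls (29.5 to 195, median 45.9), in 2 it was just under that range, and the knockdown median was 33.4. IRF2BP2 shRNA1 replicate 3 was the exception at 5.25 (4.96 to 5.56), where S100A8 reached the level seen in replicate 3 of shRNA2 and S100A9 did not. In the knockouts the ratio ran from 36.8 to 103.8 for ATF7 KO and from 21.7 to 162.7 for JDP2 KO.

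**Figure D2:**
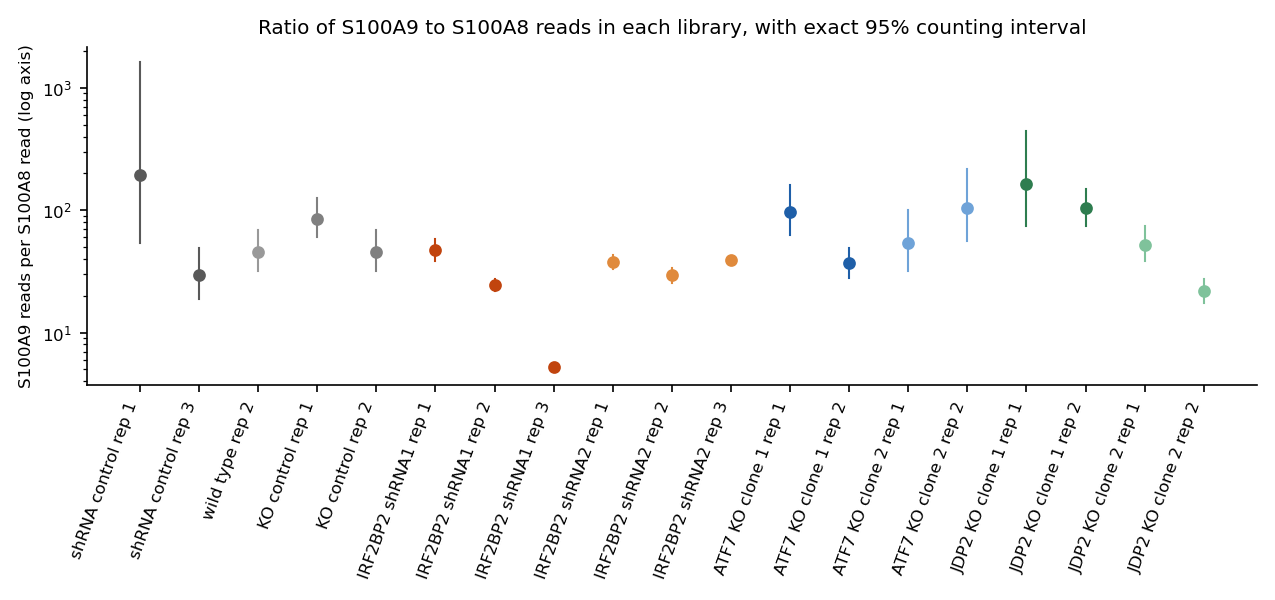
Reads of S100A9 per read of S100A8 in each library on a log axis, with the exact 95 percent interval from counting. The ratio is lowest in IRF2BP2 shRNA1 replicate 3 at 5.25 and lies between 21.7 and 195 in the other 18 libraries.

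Among the broadly expressed members, S100A4, S100A10 and S100A11 were higher in every knockdown library than in any of the 5 controls, but none passed the test against shRNA control. S100A4, which binds non-muscle myosin and is linked to cell motility, stood at 1489 and 1652 in shRNA control, at 2957, 4082 and 12043 with IRF2BP2 shRNA1 and at 3928, 4505 and 5856 with shRNA2. Wild type (1429) and the KO control (1073 and 1064) were lower still, so the groups did not overlap, and shRNA1 replicate 3 was 2.06 times as high as the next library. Its log2 change was 1.66 ± 0.45 (SE; interval 0.68 to 2.64; limma adjusted p = 0.0974).

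S100A10, which does not bind calcium and forms a complex with annexin A2 at the plasma membrane, stood at 1151 and 1402 in shRNA control. It was at 2277, 2629 and 2369 with IRF2BP2 shRNA1, and at 2191, 2659 and 4225 with shRNA2. The knockdown libraries other than the last lay close together, and all were above wild type (1484) and the KO control (1055 and 901). The log2 change was 1.06 ± 0.32 (SE; interval 0.37 to 1.75; limma adjusted p = 0.136).

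S100A11, a partner of annexin A1, stood at 9023 and 7036 in shRNA control, at 14395, 15657 and 13068 with shRNA1, and at 13329.8, 17661 and 24908 with shRNA2. Wild type was at 9028 and the KO control at 8396 and 9651, so again no control reached the lowest knockdown library. The log2 change was 1.01 ± 0.36 (SE; interval 0.23 to 1.80; limma adjusted p = 0.224). With all 5 libraries as the control, S100A4, S100A10, S100A11 and S100A12 were called beside S100A8 and S100A9, 6 of 8 genes against 12.3 percent of all genes. That count includes S100A12, which passed the filter only through the knockdown libraries.

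S100A6 and S100A13 showed no shift of that kind. S100A6, or calcyclin, which binds the protein encoded by CACYBP, stood at 11034 and 9696 in shRNA control, at 15339.8, 12604 and 7625 with IRF2BP2 shRNA1, and at 14567, 14365 and 31404 with shRNA2. Replicate 3 gave the lowest S100A6 value of all 19 libraries with shRNA1 and the highest with shRNA2, so the groups overlapped, and the log2 change was 0.50 ± 0.46 (SE; interval -0.50 to 1.49; limma adjusted p = 0.682). S100A13, which takes part in the release of FGF1 and interleukin-1 alpha by a route that bypasses the Golgi, stood at 103 and 141 in shRNA control, at 137, 61.1 and 92.7 with shRNA1, and at 94.8, 102 and 236 with shRNA2. Its log2 change was -0.13 ± 0.46 (SE; interval -1.14 to 0.87; limma adjusted p = 0.927). Both intervals span 0.

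Counted by overlap alone, 5 of 8 genes had all 6 knockdown libraries above all 5 controls, against 6.06 percent of all genes tested. S100A12 also had all 6 above both shRNA control libraries, as had 10.9 percent of all genes, but it passed the filter only through the knockdown and so had to differ. No member had all knockdown libraries above all 13 other libraries (3.69 percent of all genes did). JDP2 KO clone 1 replicate 2 overlapped the knockdown for S100A4, S100A9, S100A10 and S100A11. ATF7 KO libraries also overlapped it for S100A10 (2238 in clone 1 replicate 2) and S100A11 (14103 in clone 2 replicate 2). For S100A8 and S100A12 knockout libraries overlapped it as well. The authors' deposited table, which compares the knockdown with the controls together, called 6 of 8 genes, against 17.5 percent of all genes with an adjusted p there. In the authors' deposited table the log2 change was 2.80 ± 0.46 (SE) for S100A8, 2.23 ± 0.46 for S100A12, 2.14 ± 0.44 for S100A9, 1.78 ± 0.32 for S100A4, 1.08 ± 0.26 for S100A10 and 0.89 ± 0.21 for S100A11. S100A6 (adjusted p = 0.144) and S100A13 (adjusted p = 0.739) were not called in the authors' deposited table.

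Tools differed in how many members they called. DESeq2 called 6 of 8 (5.4 percent of all genes), limma with array weights 6 (11.9 percent) and edgeR 0 (0.973 percent), where S100A9 had an adjusted p of 0.0587 and S100A8 of 0.0667. S100A12, which passed the filter only through the knockdown libraries, is among the 6 called by DESeq2 and with array weights. S100A8 and S100A9 were higher in the knockdown under every setting run, by log2 changes of 3.98 to 6.70 and of 3.05 to 4.79.

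**Figure D3:**
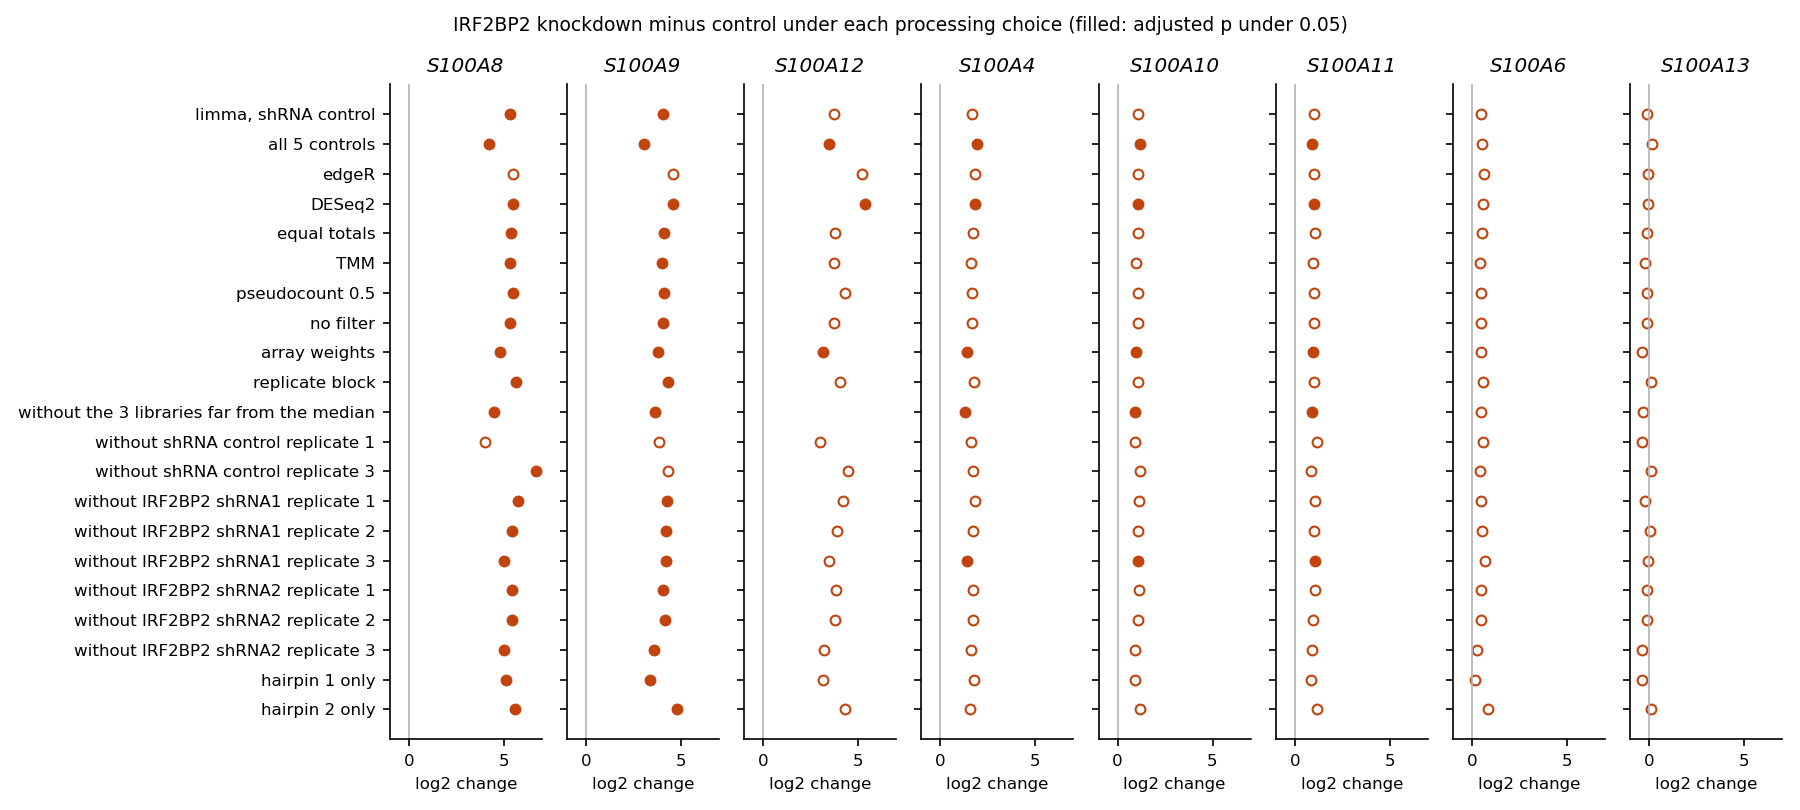
Log2 change of each S100 gene in the IRF2BP2 knockdown (horizontal axis) under each processing choice or left-out library (rows), filled where the adjusted p was under 0.05. S100A8, S100A9, S100A12, S100A4, S100A10 and S100A11 lie right of 0 under every choice, S100A13 lies on both sides, and the fill changes with the choice.

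The hairpins were compared with each other in a fit with a group for each. Limma called 0 of 8 genes and 0 of all 12738 genes (0 percent), with 917 genes at an unadjusted p under 0.05. S100A9 had the largest difference, higher with shRNA2 by 1.42 ± 0.57 (SE; interval 0.18 to 2.66; limma adjusted p = 0.589), with 3 of 3 libraries above those of shRNA1. Without replicate 3 of shRNA2 that difference was 0.59. For S100A8 the difference was 0.48 with an interval from -1.52 to 2.48, which spans several-fold in either direction.

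In the knockouts no S100 member was called. Against the KO control, limma called 0 of the 7 members tested in ATF7 KO, where 0.25 percent of 13208 genes were called, and 0 of 7 in JDP2 KO, where 0.674 percent were. No member in either was at an unadjusted p under 0.05, against 936 of all genes in ATF7 KO and 2217 in JDP2 KO. In ATF7 KO DESeq2 (1.91 percent of all genes) and edgeR (0.25 percent) also called 0 members, and in JDP2 KO they called 0 as well (4.61 and 0.924 percent). S100A12 was too low to be tested there, with 6 reads over the 4 ATF7 KO libraries and 12 over the 4 JDP2 KO libraries. The 2 comparisons share the KO control libraries, so their values are not independent of each other.

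S100A8 stood at 21.6 and 59.7 in ATF7 KO clone 1, at 16.2 and 12.004 in clone 2, at 6.33 and 67.1 in JDP2 KO clone 1 and at 25.0 and 87.5 in clone 2. S100A9 stood at 2096 and 2193 in ATF7 KO clone 1, at 877 and 1246 in clone 2, at 1029 and 6974 in JDP2 KO clone 1 and at 1304 and 1900.3 in clone 2. Both sets overlapped the KO control (34.8 and 19.1 for S100A8, 2962 and 874 for S100A9), and the high S100A9 value belongs to JDP2 KO clone 1 replicate 2, which stood apart over the whole table. The log2 change in ATF7 KO was -0.19 ± 0.95 (SE; interval -2.26 to 1.88) for S100A8 and -0.10 ± 0.70 (-1.62 to 1.41) for S100A9. In JDP2 KO it was 0.29 ± 0.95 (-1.78 to 2.36) and 0.35 ± 0.70 (-1.16 to 1.87). The signs of all 4 values turned under some settings. The upper bounds lie below the fitted change in the knockdown, but that change is against another control. Mean S100A9 was 470 in shRNA control and 1918 in the KO control. The limma test of the difference between arms, given below, called neither gene.

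S100A10 had the lowest adjusted p of the members in each knockout. It stood at 1393 and 2238 in ATF7 KO clone 1, at 1004 and 2023 in clone 2, at 1181 and 3774 in JDP2 KO clone 1 and at 1361 and 1777 in clone 2, against 1055 and 901 in the KO control. JDP2 KO libraries all lay above the KO control, and ATF7 KO libraries overlapped it. The share of all genes with JDP2 KO libraries all above the KO control is not given here, so this lack of overlap supports nothing on its own. The log2 change was 0.89 ± 0.44 (SE; interval -0.07 to 1.86; limma adjusted p = 0.325) in JDP2 KO and 0.70 ± 0.44 (-0.26 to 1.66; adjusted p = 0.777) in ATF7 KO. Against all 5 controls no member had all JDP2 KO libraries higher (7.34 percent of all genes did), and none had all ATF7 KO libraries higher (2.2 percent).

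The other members tested had log2 changes of -0.07 to 0.78 in the knockouts. In each of the 4 clones, the library labelled replicate 2 was higher than that labelled replicate 1 for S100A4, S100A6, S100A9, S100A10, S100A11 and S100A13. S100A4, for example, stood at 881 and 2724 in ATF7 KO clone 2 and at 1055 and 3908 in JDP2 KO clone 1. This spread within clones is part of the error of each value above. In the KO control S100A11 was also higher in replicate 2, whereas S100A4, S100A6, S100A9, S100A10 and S100A13 were lower there. The share of all genes with the order seen in the clones is not given here. The authors' deposited tables called 0 of 8 genes in ATF7 KO (0.315 percent of all genes) and 0 of the 7 with an adjusted p in JDP2 KO (12.1 percent), the lowest being S100A11 (adjusted p = 0.0675) and S100A10 (adjusted p = 0.0973).

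JDP2 KO was also set against ATF7 KO, which needs no control. Limma called 0 of 7 members and 0 of 13208 genes (0 percent), with 289 genes at an unadjusted p under 0.05, and differences of the members ran from 0.07 to 0.48. Between the clones of ATF7 KO 0 of 7 members were called (0.303 percent of all genes). The log2 differences of clone 2 from clone 1 were -1.31, -1.04 and -1.05 for S100A8, S100A9 and S100A13 (adjusted p of at least 0.909 by limma). For these genes the 2 libraries of each clone did not overlap. The share of all genes without such overlap is not given here, so the lack of overlap supports nothing on its own. S100A12 had 6 reads in clone 1 and 0 in clone 2. Between the clones of JDP2 KO 0 of 7 were called (0.136 percent), with 1.10 for S100A8 and -0.77 for S100A9, and both signs turned when single libraries were left out.

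**Figure D4:**
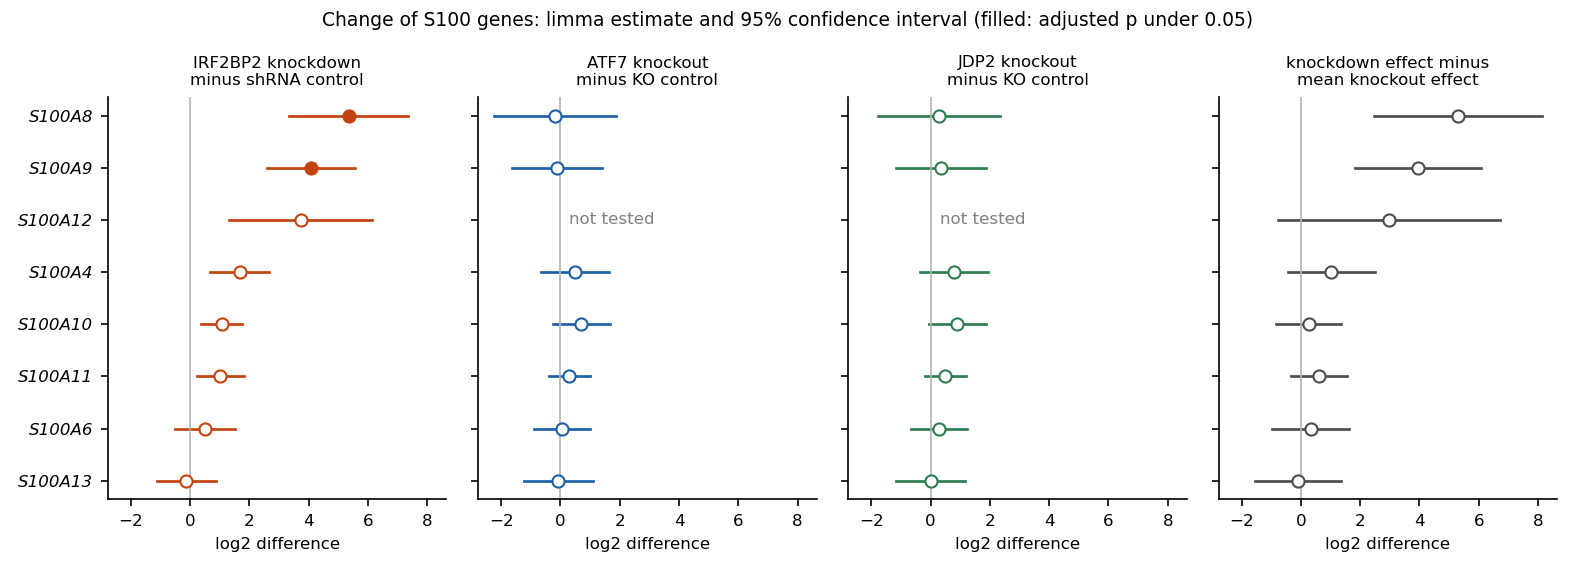
Log2 difference of each S100 gene with its 95 percent interval from limma, for the knockdown, ATF7 KO, JDP2 KO and the difference between the knockdown effect and the mean knockout effect; filled points have an adjusted p under 0.05. S100A8 and S100A9 are filled in the knockdown, and the intervals of all members tested in the knockouts include 0.

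Whether the knockdown effect differs from the mean effect of the knockouts was tested directly, each arm against its own control. Limma called 0 of 8 members, with 1.41 percent of 13057 genes called. S100A8 was just outside the threshold (5.29 ± 1.36, SE, interval 2.46 to 8.12, limma adjusted p = 0.0542). So was S100A9 (3.95 ± 1.02, interval 1.82 to 6.09, limma adjusted p = 0.0555). Only these 2 members were at an unadjusted p under 0.05, as were 2236 of all 13057 genes. For S100A12 the difference was 2.98 ± 1.79 and for S100A4 1.03 ± 0.70. S100A8 and S100A9 were both called with DESeq2 (5.92 percent of all genes called), and with limma after scaling to equal totals (1.62 percent) or by TMM (2.8 percent), with array weights (4.3 percent), with the replicate number as a block (5.1 percent) or without the 3 libraries far from the median (4.84 percent). With edgeR (1.61 percent) neither was called. With all 5 controls, which cancel in this difference, 5 members were called, where 36.5 percent of all genes were. S100A12, which passed the filter only through the knockdown libraries, is among those 5.

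The other genes of the pathway were taken from lists chosen by role. Of the receptors and binding partners of S100 proteins, 17 were tested in the knockdown, of which 3 rose and 0 fell. The median log2 change was 0.69 against -0.03 over all genes tested. LY96, among those that rose, and CD14 passed the filter on low counts only through the knockdown libraries. That count and that median thus support nothing on their own. CD14 and CD33 of this list are also among the monocytic markers. LY96, the co-receptor of TLR4, was at 1.99 and 8.43 in shRNA control and at 18.96 to 178 in the knockdown, a log2 change of 3.33 ± 0.76 (SE, limma adjusted p = 0.0461). ANXA1, the partner of S100A11, went from 277 ± 175 (SD, n = 2) to 3337 ± 2023 (SD, n = 6), a log2 change of 3.59 ± 0.49 (adjusted p = 0.00367). CD36, a scavenger receptor that takes up fatty acids, went from 97.0 ± 24.5 to 1219 ± 943, a log2 change of 3.34 ± 0.61 (adjusted p = 0.0164). For ANXA1 and CD36 all 6 knockdown libraries were above both shRNA controls, as they were for 10.9 percent of all genes. This also held for LY96, but LY96 passed the filter only through the knockdown libraries and so had to differ. In the knockouts 16 of this list were tested and 0 called (median 0.06 in ATF7 KO and -0.14 in JDP2 KO, against 0.04 and 0.0049 over all genes), and BSG and MYH9, its most abundant members, had log2 changes of 0.87 and 0.07 in ATF7 KO and of 0.91 and 0.02 in JDP2 KO. ANXA1 (2.50 ± 0.57, adjusted p = 0.0363) and ANXA6 (1.57 ± 0.36, adjusted p = 0.0354), another annexin, were called in the difference between knockdown and knockout effects.

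Of the other S100 family genes, 7 of 13 were high enough to be tested in the knockdown, 1 rose and 0 fell, and the median log2 change was 0.63. The gene that rose was S100A2, best known from epithelial cells. S100A2 and S100A5 passed the filter in this comparison only through the knockdown libraries. The count of genes that rose, the call of S100A2 and that median thus support nothing on their own. S100A2 was at 7.96 and 1.87 in shRNA control and at 28.2 to 84.4 in the knockdown. Its log2 change was 3.26 ± 0.64 (SE, limma adjusted p = 0.0232). In both knockouts 7 were tested and 0 called (median -0.14 in ATF7 KO and -0.16 in JDP2 KO), and S100PBP and S100P, the most abundant, changed by -0.12 and -0.10 in ATF7 KO and by -0.16 and 0.40 in JDP2 KO. In the difference between knockdown and knockout effects 0 of 7 were called.

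Of the transcription factors of the monocytic program, 10 were tested in the knockouts and 0 called. The median log2 change was 0.57 in ATF7 KO and 1.03 in JDP2 KO. CEBPD of these passed the filter on low counts only through knockout libraries. CEBPA and SPI1, the most abundant of them and both factors of myeloid differentiation, had log2 changes of 0.56 and 0.78 in ATF7 KO and of 1.21 and 1.15 in JDP2 KO (limma adjusted p of at least 0.194).

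The genes were then compared by pattern over the 19 libraries, as a description, since libraries of 1 group share their treatment. Among the members, S100A8 and S100A12 were most alike (Pearson r 0.92 on log2 values, Spearman rho 0.88), followed by S100A10 and S100A11 (0.90 and 0.83) and by S100A8 and S100A9 (0.88 and 0.90). S100A13 was least like the others, with r from 0.32 to 0.59. Among all genes with a mean of at least 50 normalized counts, those closest to S100A8 were RNASE6 (0.92), TNFSF10 (0.91) and SP110 (0.91), and those closest to S100A9 were METTL9 (0.96), FTH1 (0.91) and SH3TC1 (0.91). S100A4 was closest to NMI (0.97), MYL12A (0.95) and B2M (0.94). S100A10 was closest to PARP10 (0.93), CAPZB (0.93) and CYTH1 (0.92), S100A11 to CYTH1 (0.93), TYMP (0.92) and CTSZ (0.91), and S100A6 to STX4 (0.93), EPHX1 (0.93) and TOM1 (0.93). S100A12 was closest to S100A8, RNASE6 (0.90) and RSPH3 (0.90), and S100A13 to PGGHG (0.88), IL11RA (0.87) and ATG16L2 (0.87).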

How the data were processed

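RNA was sequenced from THP1 libraries, and 19 of 21 were analysed here, the labels marking the other 2 as low quality. The authors deposited normalized counts, a signal per gene, and their own comparisons, each with log2 fold changes, standard errors, a Wald score, p-values and adjusted p-values. Per the submitters' processing notes, DESeq2, featureCounts and hg38 were used (roles not stated). The aligner was not given in the sources used here. In each library 100 percent of deposited values above 0 were whole multiples of the value of 1 read within 0.01, so read counts were recovered. Of counts from 1 to 20, 63.4 to 79.3 percent were even, so reads may not be independent, and intervals cover counting error only.

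Values were log2(normalized count + 1), which understates changes of low genes. Genes with a mean of at least 10 were tested with limma 3.58.1 (trend, two-sided) and called where the p, adjusted by Benjamini and Hochberg over all genes tested, was under 0.05, in 8 comparisons. edgeR 4.0.16 and DESeq2 1.42.0 ran on the recovered reads; other settings are in the closing section. The fits were tested on simulated data. The members, lists and rules were chosen with earlier results of these data known. From each list every called gene is named (at most 6), otherwise the 2 most abundant, and for each member the 3 genes with the highest Pearson r. Gene positions are from GENCODE v29 and promoters from RefSeq, which held all 8 members. Some results of the gene lists are not reported here.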

Additional observations from a re-analysis of the deposited data

Results flagged for a closer look

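Of 32 sets of libraries checked for a library that stands apart (each member over all 5 controls, the 6 knockdown libraries and the 4 libraries of each knockout), 3 held one, and chance alone gives about 1 in 20. S100A8 in shRNA control replicate 1 stood at 1.99 normalized counts, far below the other 4 controls (18.7 to 34.8). S100A9 in IRF2BP2 shRNA2 replicate 3 stood at 40910.3, far above the other 5 knockdown libraries (3926 to 8237). S100A10 in the same library stood at 4225, against 2191 to 2659 in the other 5. That library also has more IRF2BP2 message than the shRNA control libraries.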

How the results depend on the processing

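Limma called 2 of 8 members in the knockdown. The count was 6 with all 5 controls, with DESeq2 and with array weights, 5 without the 3 libraries far from the median, 0 with edgeR, and 0 to 5 when 1 library was left out. Each count of 6 includes S100A12, which passed the filter only through the knockdown libraries. Over all genes 228 were called in the knockdown, 1561 with all 5 controls, 1514 with array weights, 1251 without the 3 libraries, 682 with DESeq2, 124 with edgeR and 11 to 609 with 1 library left out, and DESeq2 called 223 in ATF7 KO and 526 in JDP2 KO, against 33 and 89. Where leaving out a library left 1 in a group, that library was assumed to vary like the other groups. The count of members was also 2 with equal totals, TMM, a pseudocount of 0.5, no filter and each hairpin alone. Between hairpins it was 1 with array weights. For the knockdown effect minus the knockout effect the count was 0, against 5 with all 5 controls (which then cancel), 2 with DESeq2, equal totals, TMM, array weights and without the 3 libraries, and 0 to 2 when 1 library was left out. In the other comparisons it was 0 under every setting run. Over 27 gene results and 568 values under other settings, 38 changed sign, and 17 results never did; the causes were not tested. Single hairpins and clones were added after seeing the data.

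S100A13 in the knockdown (-0.13) was 0.13 with all 5 controls, 0.13 with shRNA2 alone, and -0.35 to 0.087 when 1 library was left out. S100A8 in ATF7 KO (-0.19) was 0.49 with all 5 controls, 0.044 with edgeR, 0.034 with DESeq2, 0.13 with array weights, 0.46 in clone 1, and -0.64 to 0.23 with 1 library left out. S100A9 in ATF7 KO (-0.10) was 0.66, 0.13 and 0.41 with all 5 controls, array weights and clone 1, and -0.98 to 0.78 with 1 library left out. In JDP2 KO, S100A8 (0.29) was -0.095 with array weights, -0.065 without the 3 libraries, -0.26 in clone 1, and -0.19 to 1.01 with 1 library left out. S100A9 there (0.35) was -0.27 with array weights, -0.24 without the 3 libraries, -0.031 in clone 2, and -0.53 to 1.23 with 1 left out. Between JDP2 KO and ATF7 KO, S100A8 (0.48) was -0.23 and S100A9 (0.46) -0.40 with array weights, S100A9 was -0.13 without the 3 libraries, and leaving out 1 library gave -0.0022 to 1.196 and -0.13 to 0.79. Between JDP2 KO clones S100A9 (-0.77) was 0.61 without the 3 libraries and -2.15 to 0.61 with 1 left out, and S100A8 (1.10) -0.51 to 2.71. Between hairpins S100A8 (0.48) was -0.34 to 1.46 with 1 left out.

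Replicate numbers were not taken to pair the libraries, since not every pair correlated over 0.1. Deviations of same-numbered libraries over all genes correlated from -0.29 to 0.42 in 7 pairs of the knockdown arm, 3 of them over 0.1. In 20 pairs of the knockout arm the correlations ran from -0.58 to 0.58, 8 of them over 0.1. Each group of the knockout arm has 2 libraries, whose deviations mirror each other. Each correlation there is thus the same for replicate 1 and replicate 2, and the 20 pairs are not 20 separate values. Within the 4 clones, however, 6 members were higher in replicate 2 than in replicate 1 every time. In the KO control all of these but S100A11 were lower in replicate 2. With the replicate number as a block 2 members and 209 genes were called in the knockdown, S100A13 was 0.11 there, and 2 members were called in the difference of effects. Low read numbers limit S100A12 and S100A8 in controls and knockouts, where several-fold changes are within the error.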
